A study of Homo sapiens with 3 samples.

Results

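LPCAT3, the long-chain acyl-CoA synthetases ACSL1, ACSL3 and ACSL4, the lipoxygenases ALOX5, ALOX12, ALOX15 and ALOX15B, the phospholipid acyltransferase MBOAT2 and the scaffold protein PEBP1 were followed through a CRISPR/Cas9 screen of Huh-7 cells. These 10 genes, of 18992 in the sgRNA library, were taken for their known place in the activation, phospholipid insertion and enzymatic oxidation of fatty acyl chains. All sgRNAs annotated to them were used, 6 per gene and 60 of 119461 in all, with 30 in sub-library A and 30 in sub-library B (names starting with HGLibA and HGLibB).

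Huh-7 is an established human hepatocellular carcinoma line. It was transduced with the GeCKOv2 lentiviral library at a target MOI of 0.3, so that most transduced cells carried a single sgRNA, and selected with puromycin. The 3 libraries were 1 of untreated transduced cells, 1 of cells that survived 24 h in 0.1 µM RSL-3 (the RSL-3 library), and 1 of cells that survived 24 h in 0.03 µM RSL-3 plus linoleic acid (LA) at 50 mM (the RSL-3/LA library), doses as the labels give them. The unit of the LA dose could not be checked from the counts, and a slip for µM is possible. Survivors were expanded and selected repeatedly, with 4 selections named in the figure legends for both screens and 3 and 5 repeated stimulations in the methods. LA and the RSL-3 dose, and possibly the number of rounds, changed together between the survivor libraries and cannot be told apart.

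RSL-3 blocks GPX4, the enzyme that reduces phospholipid hydroperoxides, and cells then die by ferroptosis when peroxides of polyunsaturated phospholipids build up. The polyunsaturated chains reach the membrane in steps. An acyl-CoA synthetase, ACSL4 above all, joins the free fatty acid to coenzyme A, and LPCAT3 places the activated chain in a lysophospholipid. The chain is then oxidised by free radicals or by a lipoxygenase. ACSL3 and MBOAT2 are known for handling monounsaturated chains, which oxidise poorly and protect membranes. Loss of a gene that promotes this process lets its carriers outlive the treatment, and their sgRNA becomes more common.

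Total counts were 1466896 in untreated cells, 1467705 in the RSL-3 library and 1485991 in the RSL-3/LA library, so that 1 count was worth 0.673 to 0.682 CPM, the count per 1000000 counts of its library. Of all sgRNAs 16.0%, 2.46% and 4.16% had a count in these libraries. Of the 1000 non-targeting sgRNAs, which cut no gene, 29%, 5.6% and 8.2% did. Each condition has 1 library, so no difference between conditions has a replicate check and none was tested. Enriched sgRNAs were those with 100 CPM or more after selection whose CPM was also at least 10-fold that of untreated cells, where fewer than 3 counts were taken as 3. An sgRNA was called depleted when it had at least 30 untreated counts and a CPM at least 10-fold lower in survivors, with fewer than 3 survivor counts taken as 3. Intervals are exact 95% intervals. They cover counting error only, as does the bound of 3 counts set where 0 were seen, because PCR reads are not independent molecules.

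In untreated cells 12 of the 60 sgRNAs had a count, or 20%, against 16.0% of all sgRNAs and 29% of non-targeting ones. These 12 belonged to 7 of the 10 genes. Over the whole library 63.5% of genes had an untreated count. The summed count of the 10 genes was 976 in untreated cells, or 0.0665% of the library (0.0624 to 0.0708). ACSL1 and ALOX12 were the best represented, with 241 and 248 counts, nearly all in a single sgRNA each. ALOX5 had 148 counts, LPCAT3 147, PEBP1 106, ACSL3 66 and ALOX15 20. ACSL4, MBOAT2 and ALOX15B had 0 counts on all 6 sgRNAs each, which allows a share of up to 0.000205% for each sgRNA. In all, 45 of the 60 sgRNAs had 0 counts in every library. Nothing can be read from these about the genes, since it was not measured whether their carriers were present at all.

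**Figure D1:**
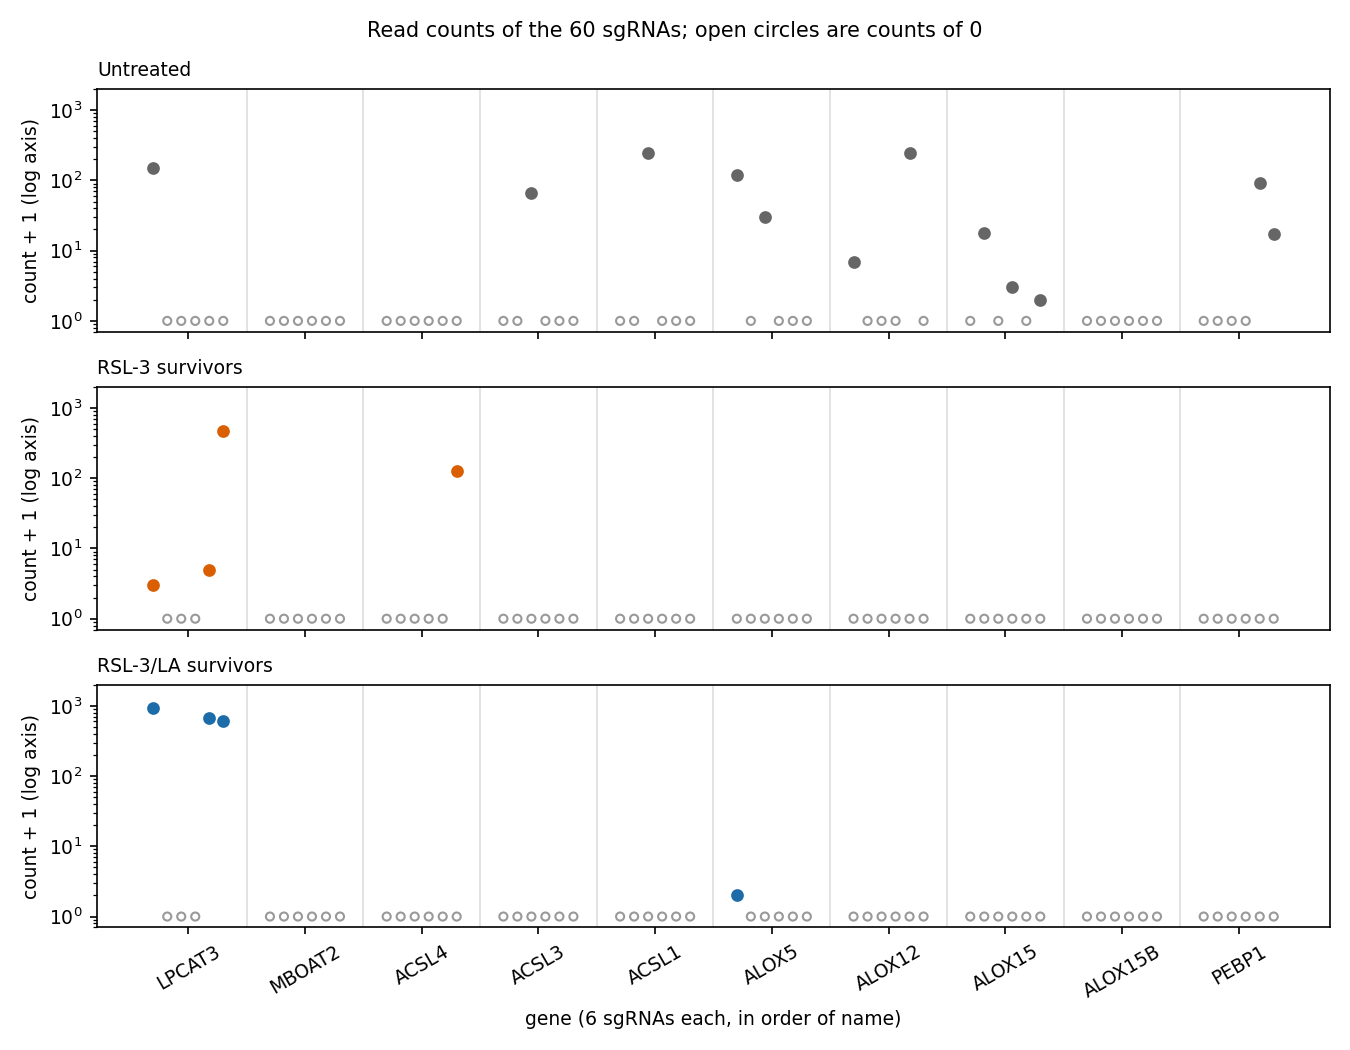
Read count plus 1 (log axis) of each of the 60 sgRNAs in the 3 libraries, with 1 panel per library and 6 sgRNAs per gene in order of name; filled circles are counts above 0 and open circles counts of 0. Untreated counts are spread over 7 genes, whereas the survivor libraries hold counts for LPCAT3 with ACSL4 (RSL-3) and for LPCAT3 with a single ALOX5 count (RSL-3/LA).

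After selection most counts of the 10 genes belonged to LPCAT3. It supplied 79.1% of their 597 counts in the RSL-3 library and 2222 of their 2223 counts in the RSL-3/LA library. Over its 6 sgRNAs LPCAT3 had 147 untreated counts (100.2 CPM), 472 in the RSL-3 library (321.6 CPM) and 2222 in the RSL-3/LA library (1495 CPM). By summed count it stood at place 3683 of the 18992 genes in untreated cells, at 212 in the RSL-3 library and at 79 in the RSL-3/LA library. The summed CPM was 3.21-fold (2.66 to 3.89) and 14.9-fold (12.6 to 17.8) that of untreated cells.

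The sgRNAs of LPCAT3 did not move alike. HGLibB_27038 had 0 untreated counts, 466 in the RSL-3 library and 612 in the RSL-3/LA library, at least 155-fold and at least 201-fold over untreated cells. It was the single LPCAT3 sgRNA abundant in both survivor libraries. HGLibB_27037 had 0 untreated counts, 4 in the RSL-3 library and 673 in the RSL-3/LA library, at least 221-fold over untreated cells with LA. HGLibA_27076 had 147 untreated counts, 2 in the RSL-3 library and 937 in the RSL-3/LA library, a ratio of CPM to untreated cells of 0.0136 (0.00163 to 0.0500) without LA and 6.29 (5.28 to 7.54) with LA. It was thus low where RSL-3 was given alone and the most abundant of the 3 with LA. The remaining sgRNAs, HGLibA_27077, HGLibA_27078 and HGLibB_27036, had 0 counts in every library.

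**Figure D2:**
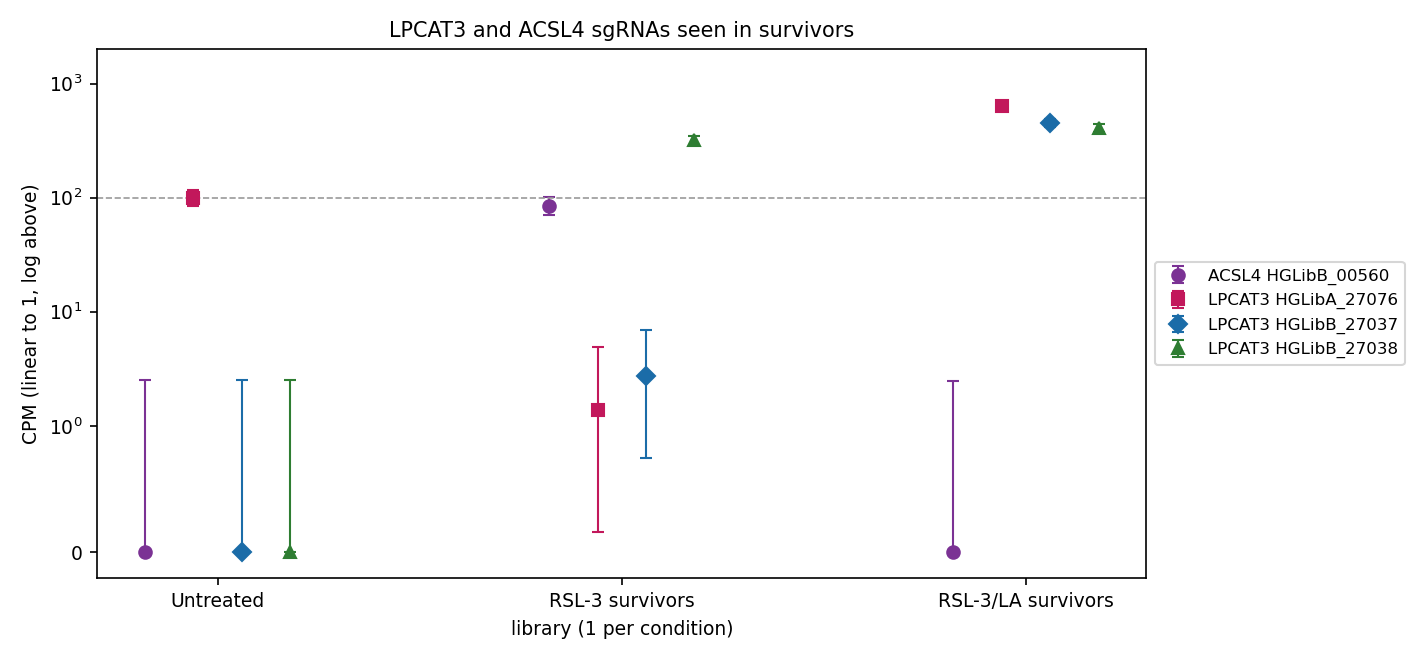
CPM (linear to 1, log above) of the 3 LPCAT3 sgRNAs and the ACSL4 sgRNA counted in survivors, in each of the 3 libraries; points are single libraries, bars exact 95% counting intervals, and the dashed line 100 CPM. In the RSL-3/LA library the 3 LPCAT3 sgRNAs lie together at 412 to 631 CPM, whereas in the RSL-3 library 1 of them is above 100 CPM.

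Within the RSL-3/LA library these 3 sgRNAs were close to each other, the highest being 1.53 times the lowest, and they supplied 42.2%, 30.3% and 27.5% of the LPCAT3 counts. Genes with 3 or more sgRNAs at 100 CPM or more were few there, namely LPCAT3, DHCR7 (the sterol reductase on which the study centres) and SYN1, a protein of synaptic vesicles. That count uses the level alone, and HGLibA_27076 of LPCAT3 was at 100.2 CPM in untreated cells already. With the 10-fold rule added, LPCAT3 had 2 enriched sgRNAs in the RSL-3/LA library and DHCR7 had 3. The third most abundant sgRNA had 612 counts for LPCAT3, 3482 for DHCR7 and 224 for SYN1. No gene of the 18992 had 3 sgRNAs at 100 CPM or more in the RSL-3 library, and 9 had 2. There LPCAT3 rested on HGLibB_27038, which supplied 98.7% of its counts, and without that sgRNA its summed CPM was 0.0408 times that of untreated cells.

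By the rule of size, 1 of the 60 sgRNAs was enriched in the RSL-3 library, against 0.419% of all sgRNAs and 1.1% of non-targeting ones. In the RSL-3/LA library 2 were enriched, against 1.2% of all and 2.9% of non-targeting sgRNAs. All of these were LPCAT3 sgRNAs, so 1 of the 10 genes had an enriched sgRNA in each screen, against 2.44% of all genes for RSL-3 and 6.72% for RSL-3/LA. For a list of 10 genes these counts are near what the library as a whole gave. LPCAT3 itself was among the 0.237% of genes with at least 2 enriched sgRNAs in the RSL-3/LA library. At a level of 1000 CPM neither library had an enriched sgRNA among the 10 genes. Among sgRNAs with at least 10 untreated counts neither had one either, since every enriched LPCAT3 sgRNA had 0 untreated counts, as did 81.6% of all enriched sgRNAs in the RSL-3 library and 86.9% in the RSL-3/LA library.

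ACSL4, the synthetase with a preference for arachidonic and adrenic acid, had a count in 1 library and for 1 sgRNA. HGLibB_00560 had 0 counts in untreated cells, 125 in the RSL-3 library (85.2 CPM) and 0 in the RSL-3/LA library. It was at least 41.6-fold higher in the RSL-3 library than in untreated cells but below 100 CPM, so it was not called. It would be called enriched with the level set at 30 CPM, or with counts scaled to the non-targeting sgRNAs or to the total without DHCR7, whose sgRNAs took a large part of that library. Of the 100308 sgRNAs with 0 untreated counts, 0.452% had 125 or more counts in the RSL-3 library. Among the 710 non-targeting ones the share was larger, at 8 or 1.13%. The other 5 ACSL4 sgRNAs had 0 counts in every library.

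The remaining synthetases were seen in untreated cells alone. HGLibA_00555 of ACSL1, a main synthetase of liver, went from 241 untreated counts to 0 with either treatment, at least 80.4-fold and 81.4-fold lower. HGLibA_00558 of ACSL3 went from 66 to 0 likewise, at least 22.0-fold and 22.3-fold lower. MBOAT2, the acyltransferase for monounsaturated chains, had no count in any library. A gene without survivor counts was the usual case, since 13.4% of all genes had a count in the RSL-3 library and 21.8% in the RSL-3/LA library.

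Among the lipoxygenases no sgRNA was enriched. ALOX5 makes the precursor of leukotrienes. Its sgRNA HGLibA_01687 had 119 counts in untreated cells, 0 in the RSL-3 library and 1 in the RSL-3/LA library, and HGLibA_01689 had 29, 0 and 0. The first was at least 39.7-fold lower in the RSL-3 library than in untreated cells, and with LA its ratio to them was 0.00830 (0.000208 to 0.0471). ALOX12, the platelet lipoxygenase, had 242 and 6 untreated counts on HGLibB_01674 and HGLibA_01675, and 0 for both in both survivor libraries, at least 80.7-fold and 81.7-fold lower for HGLibB_01674. ALOX15, which can oxygenate chains within intact phospholipids, had 17, 2 and 1 untreated counts on 3 sgRNAs and 0 after selection. At such counts a 10-fold loss cannot be seen. ALOX15B, the second 15-lipoxygenase, had no count in any library. PEBP1 is known to bind 15-lipoxygenase and turn it towards phospholipids. Its sgRNAs HGLibB_35965 and HGLibB_35966 had 90 and 16 untreated counts, and 0 after either selection, at least 30.4-fold lower for HGLibB_35965 with LA.

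Loss of an sgRNA was the rule in both screens and not particular to these genes. Of the 6 sgRNAs with at least 30 untreated counts, 1 each of ACSL1, ACSL3, LPCAT3, ALOX5, ALOX12 and PEBP1, all 6 were depleted in the RSL-3 library. Over the library 97.4% of such sgRNAs were, and 96.6% of the non-targeting ones. In the RSL-3/LA library 5 of the 6 were depleted, against 95% of all and 92.7% of non-targeting sgRNAs. The exception was HGLibA_27076 of LPCAT3.

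That sgRNA can be set beside others that started at a like level. Of 5984 sgRNAs with 98 to 220 untreated counts, within 1.5-fold of its 147, 94.0% had 0 counts in the RSL-3/LA library and 2.14% had a higher CPM there than in untreated cells. Its 937 counts were reached or passed by 22 of them including itself, or 0.368%, and by 1 of 72 non-targeting ones, or 1.39%. In the RSL-3 library 96.0% of the 5984 had 0 counts and 97.0% had 2 or fewer, so a fall to 2 counts or fewer was usual. Its 2 counts were reached or passed by 189 of the 5984 including itself, or 3.16%. For the LPCAT3 sgRNAs without untreated counts the comparison is with the 100308 sgRNAs of that kind. In the RSL-3/LA library 0.301% of these had 673 or more counts and 0.341% had 612 or more. In the RSL-3 library 0.145% had 466 or more. Of 710 non-targeting sgRNAs 4, or 0.563%, reached each of these levels, a larger share than over all sgRNAs without untreated counts. These shares describe 1 library each, and the LPCAT3 values had been seen before the comparison was made.

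**Figure D3:**
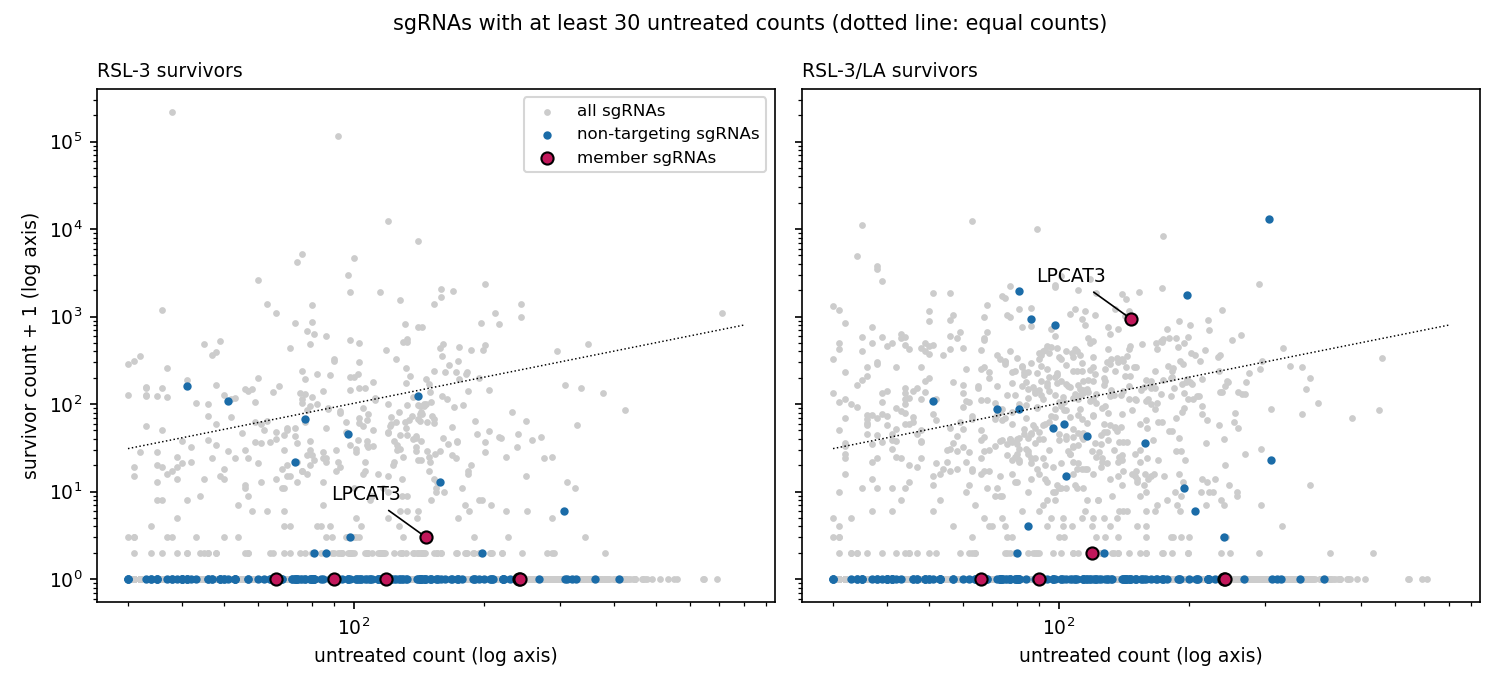
Survivor count plus 1 against untreated count (both log axes) for the sgRNAs with at least 30 untreated counts, in the RSL-3 library (left) and the RSL-3/LA library (right); grey points are all sgRNAs, blue points non-targeting sgRNAs and outlined points the 6 member sgRNAs, of which those of ACSL1 and ALOX12 overlap. The LPCAT3 sgRNA lies near the bottom with RSL-3 alone (2 counts) and above the line of equal counts with RSL-3/LA (937 counts), where the other 5 are at 0 or 1.

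Set directly against each other, the RSL-3/LA library had 4.65 times (4.21 to 5.15) the summed LPCAT3 CPM of the RSL-3 library. With counts scaled to the non-targeting sgRNAs, which held 1.01% of the RSL-3 library and 2.53% of the RSL-3/LA library, the ratio was 1.86, and that of the RSL-3/LA library over untreated cells was 8.57. HGLibA_27076 and HGLibB_27037 were called higher with LA by the same rule of size, as were 1.34% of all sgRNAs, at ratios of 463 (128 to 3827) and 166 (64.6 to 612). HGLibB_27038 had a ratio of 1.30 (1.15 to 1.47), which turned to 0.518 with scaling by non-targeting sgRNAs and to 0.906 with scaling by the total without DHCR7, so its order between the survivor libraries depends on the scaling. None of the 60 sgRNAs was called higher in the RSL-3 than in the RSL-3/LA library, against 0.45% of all. ACSL4 was the gene with the opposite order, at least 42.2-fold lower with LA through its single sgRNA of 85.2 CPM. Such an absence was common, since 85.3% of 339 sgRNAs with 84 to 187 counts in the RSL-3 library had 0 in the RSL-3/LA library.

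Low counts in a survivor library often stood beside high ones in the other. Among 276 sgRNAs with 625 to 1405 counts in the RSL-3/LA library, 67.0% had 0 counts in the RSL-3 library and 28.6% had 1 to 10, as HGLibA_27076 did with 2. The windows for HGLibB_27038 were set from its own counts after these had been seen, so its shares are a description only. Of 473 sgRNAs with 408 to 918 counts in the RSL-3/LA library, 4 including HGLibB_27038 had 466 or more in the RSL-3 library. Of 172 sgRNAs with 311 to 699 counts in the RSL-3 library, 3 including HGLibB_27038 had 612 or more in the RSL-3/LA library. In untreated cells HGLibB_27038 had 0 of 1466896 counts.

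Other genes of the same pathway, 28 in all with 168 sgRNAs, showed the same sparseness. In untreated cells 18.5% of their sgRNAs had a count, against 16.0% of all sgRNAs. Of the 28 genes 1 had an enriched sgRNA in the RSL-3 library and 3 did in the RSL-3/LA library, against 2.44% and 6.72% of all genes, and 3 of 28 is a higher share but of few genes. Of 21 sgRNAs with at least 30 untreated counts, 21 were depleted in the RSL-3 library and 20 in the RSL-3/LA library. Over the whole library 97.4% and 95% of such sgRNAs were, so these counts were near the general share.

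POR, the reductase that passes electrons from NADPH to P450 enzymes and is known to promote lipid peroxidation, supplied the enriched sgRNA of the RSL-3 library. HGLibB_37656 had 0 counts in untreated cells, 5645 in the RSL-3 library and 6 in the RSL-3/LA library, at least 1881-fold over untreated cells with RSL-3 alone. Of the other POR sgRNAs, HGLibB_37655 had 89, 0 and 91 counts and HGLibA_37705 had 143, 0 and 0. ALOX5AP, the membrane protein that presents arachidonic acid to ALOX5, had 1115 counts on HGLibA_01692 in the RSL-3/LA library and 0 in the other libraries. PLA2G4A, the cytosolic phospholipase that releases arachidonic acid, had 542 counts on HGLibB_36853 in the RSL-3/LA library, whereas HGLibB_36854 went from 33 untreated counts to 0 in both. MBOAT7, which places arachidonic acid in phosphatidylinositol, had 226 counts on HGLibA_28525 and 31 on HGLibA_28526 in the RSL-3/LA library, and 0 elsewhere. Of the 28 genes none had more than 1 enriched sgRNA in a library. In all, 2 of the 28 genes had a count in the RSL-3 library and 8 in the RSL-3/LA library, against 13.4% and 21.8% of all genes.

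**Figure D4:**
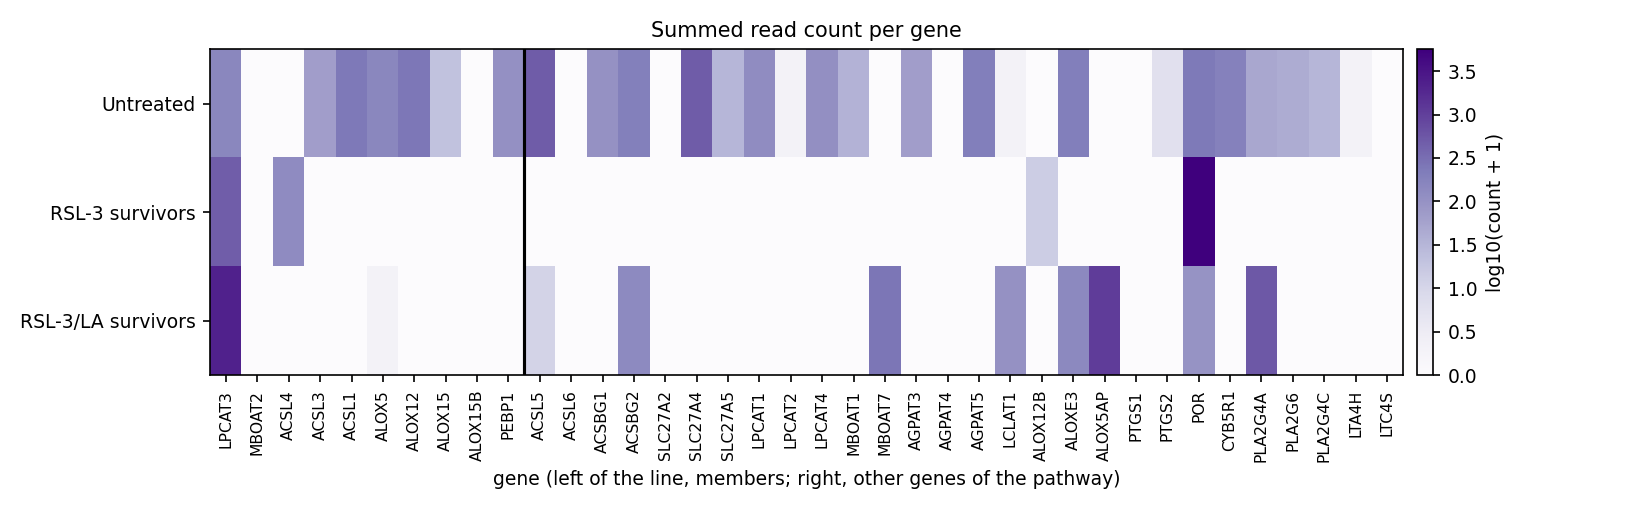
Summed read count of each gene as log10(count + 1), shown as colour, in the 3 libraries; the 10 genes described first are left of the line and the 28 other genes of the pathway right of it. LPCAT3 is the darkest of the 10 in both survivor rows, at 472 and 2222 counts, and most genes that are coloured in untreated cells are blank after selection.

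Genes with a pattern like that of LPCAT3 were sought among the 18040 genes with 6 sgRNAs. Besides LPCAT3, 5 had at least 2 enriched sgRNAs in the RSL-3/LA library and at least 1 in the RSL-3 library. Ordered by Euclidean distance in log10(CPM + 1) over the 3 libraries, the nearest was KLF16, a zinc finger transcription factor, with 81 counts in untreated cells, 1021 in the RSL-3 library and 2939 in the RSL-3/LA library (distance 0.438). MINPP1, an inositol polyphosphate phosphatase, followed with 87, 157 and 1261 counts (0.580). TAF1L had 12, 1828 and 688 counts (1.30), C8orf86 had 1, 616 and 1817 (1.79), and DHCR7 was the farthest at 3.46. An sgRNA enriched in both survivor libraries, as HGLibB_27038 was, occurred in all of these but KLF16. With 3 libraries this is a likeness in level and nothing more.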

How the data were processed

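Per the labels and methods, genomic DNA of untreated cells and of both survivor populations was extracted, the sgRNA cassette amplified by PCR and sequenced on a MiSeq. The authors deposited raw counts per sgRNA, made with MAGeCK (0.5.4 in the reporting summary; the submitters' processing notes name the tool), in 2 tables. Settings for trimming and matching reads are not given in the sources used here. The untreated count was the same in both tables for every sgRNA and was used as 1 library. Its column is named NC and was matched to the untreated sample because the other columns name their treatments and no other sample was left. Every ratio to untreated cells rests on this match. The deposited tables per target, which hold MAGeCK scores, p-values, false discovery rates and ranks, were not used. sgRNA sequences and positions were not analysed here, so none are printed.

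Counts were scaled to CPM over each library's total of 1466896 to 1485991 counts. Ratios carry exact 95% intervals from the Clopper-Pearson share of the counts. A count of 0 was replaced by 3 counts, per sgRNA or per gene sum, and then gave a bound. No count model was fitted, since each condition has 1 library. Each of the 10 symbols was found as a current symbol among the genes of GRCh38.p14. The members, the list of 28 pathway genes and the rules were chosen with earlier results of these data known. Named genes are the members, pathway genes with an enriched sgRNA and the 5 genes most like LPCAT3 by the rule in the text. SYN1 was named after its values were seen. Thresholds, floors, filters, scalings and sets of sgRNAs were varied. Python 3.11.15, numpy 2.4.6, pandas 2.3.3, scipy 1.17.1 and matplotlib 3.10.9 were used.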

Additional observations from a re-analysis of the deposited data

Results flagged for a closer look

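HGLibA_27076 of LPCAT3 was flagged because its direction against the same untreated library was opposite in the survivor libraries. Its ratio of CPM to untreated cells was 0.0136 (0.00163 to 0.0500) in the RSL-3 library and 6.29 (5.28 to 7.54) in the RSL-3/LA library. The difference was not tested, since each condition has 1 library. Its fall with RSL-3 was usual, as 96.0% of 5984 sgRNAs with a like untreated count had 0 counts in that library. In the RSL-3/LA library 2.14% of the 5984 had a higher CPM than in untreated cells. How many of them had both directions was not counted. No other of the 60 sgRNAs had counts in all 3 libraries.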

How the results depend on the processing

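Of 54 values recomputed under other settings 27 stayed near the reported one, 23 moved and 4 reversed. The number of enriched sgRNAs among the 10 genes in the RSL-3 library went from 1 to 2 at 10 CPM, at 30 CPM, with scaling by non-targeting sgRNAs and with scaling by the total without DHCR7, by inclusion of ACSL4. It went to 0 at 1000 CPM and when at least 10 untreated counts were required, as did the number of 2 in the RSL-3/LA library. The number of depleted sgRNAs in the RSL-3/LA library went from 5 to 3, and in the RSL-3 library from 6 to 4, when at least 100 untreated counts were required, which left fewer sgRNAs to call. A 3-fold rule raised the enriched sgRNAs in the RSL-3/LA library from 2 to 3. The summed LPCAT3 ratio of RSL-3 over untreated cells was 4.62 with scaling by non-targeting sgRNAs, 4.88 without DHCR7 in the total and at least 157 with sub-library B alone. It reversed to 0.0408 without the most abundant sgRNA and to 0.0136 with sub-library A alone, since the sum rests on HGLibB_27038. For RSL-3/LA over untreated cells it was 8.57 with scaling by non-targeting sgRNAs, at least 423 without the most abundant sgRNA or with sub-library B alone, and 6.29 with sub-library A alone. For RSL-3/LA over RSL-3 it was 1.86 with scaling by non-targeting sgRNAs, 3.25 without DHCR7 in the total, 2.70 without the most abundant sgRNA or with sub-library B alone, and 463 with sub-library A alone. For HGLibB_27038 the ratio of RSL-3/LA over RSL-3, 1.30, reversed to 0.518 with scaling by non-targeting sgRNAs and to 0.906 without DHCR7 in the total, settings chosen for it after seeing the data. The ratio for ACSL4 in the RSL-3 library was at least 63.4 without DHCR7 in the total, and the ratio of CPM + 1 was 86.2. ACSL4 had no value for RSL-3/LA, where both counts were 0. What limits these values is that conditions were not replicated and that 45 of the 60 sgRNAs were never counted. No paired analysis was possible because there is a single library for every condition, so none could be left out.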
